A study of Mus musculus with 24 samples.

Results

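The angiopoietin-Tie, apelin and tip cell genes of this account are 9 genes: the ligands Angpt1, Angpt2, Apln and Adm, the receptors Tek, Tie1, Aplnr and Cxcr4, and the secreted proteoglycan gene Esm1. They were taken by symbol from the 45468 genes counted in each of 24 libraries. The libraries hold messenger RNA of mouse brain endothelial cells at embryonic stage E15.5, at postnatal days 5 (P5) and 9 (P9) and in adults, with 3 independent biological replicates for each of 2 genotypes. All animals were Sox17flox/flox, so both Sox17 alleles could be recombined, and every group was given tamoxifen. The group called KO was also Cdh5(PAC)-Cre-ERT2+, which places a tamoxifen-activated recombinase under an endothelial promoter. The group called wt was Cre-ERT2- and kept intact Sox17. KO and wt thus differ in Cre as well as in Sox17, and these cannot be told apart. For E15.5 the dams received 2 injections of 1 mg on days 11.5 and 13.5 of gestation. The P5 and P9 pups received 100 µg at postnatal day 1. Adults were 6 weeks old, received 4 doses of 1.5 mg and were taken 1 week later. A dissociation kit for neural tissue was used at E15.5 and P5 and another, for adult brain, at P9 and in adults, so a stage step from P5 to P9 also changes the kit. Cells bearing the leukocyte marker CD45 were removed and cells bearing CD31 were kept.

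Angiopoietin-1, made mainly by mural cells, activates the endothelial receptor tyrosine kinase Tie2, the product of Tek, and quiets vessels. Angiopoietin-2, made by endothelial cells themselves, competes with it and is known from sprouting, inflamed or destabilised vessels, and Tie1 is an orphan partner receptor that modulates Tie2. The peptide apelin acts on a G protein-coupled receptor encoded by Aplnr, and apelin, Esm1, Angpt2, Cxcr4 and adrenomedullin are all known from the tip cells that lead a growing sprout, in the brain as elsewhere.

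Depth ranged from 12301779 to 19830600 counts per library. Levels are given as CPM, counts scaled for the depth and composition of each library, and as the authors' TPM, which also divides by gene length, where genes are compared with each other. A gene was called where the adjusted p of edgeR's quasi-likelihood test was under 0.05, and log2 fold changes are given ± SE with n = 3 libraries a group. The targeted gene Sox17 stayed below the wt range of its stage in each KO library, with a log2 fold change of -3.30, -4.05, -3.82 and -2.49 from E15.5 to adults. All 10 endothelial markers were detected in each group. Their summed level was 3541 to 4410.4 CPM at E15.5 and 12726 to 15400.3 CPM in the other groups except P9 KO, which held 18912 to 23529 CPM. Among other cells, pericyte markers summed to 2623 to 3630.4 CPM in P9 wt and 673 to 1709.7 CPM in P9 KO. Astrocyte markers summed to 516 to 584 CPM and 819 to 1224 CPM in those groups. Red cell markers summed to 2569 to 3457 CPM in E15.5 wt and 525 to 822 CPM in E15.5 KO. Neuron markers summed to 1046 to 1272 CPM in E15.5 wt, 947 to 1256 CPM in E15.5 KO and 115 to 201 CPM in P5 wt. In such bulk samples, fewer cells of a type and less RNA per cell cannot be told apart.

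The promoters of Tek, which was lower in KO at P9, and of Apln and Adm, which were higher, are shown so that the sequence stands beside the response. Each line gives the 250 bases before the start site in RefSeq annotation of GRCm38.p6, 5′ to 3′ on the gene's own strand. Of the 9 genes, 6 matched the promoter table (Tek, Tie1, Apln, Esm1, Cxcr4 and Adm), and Angpt1, Angpt2 and Aplnr are named only. Capitals mark matches, on either strand, to any of 4 short motifs. These were ACAAT, the core bound by SOX factors, ACGTG and GCGTG, the forms of the core bound by hypoxia-inducible factors, and GTAAACA, bound by forkhead factors of the FoxO type. The hypoxia forms share the letters CGTG, and no marked match overlaps another.
Tek, chr4:94739039-94739288, plus strand: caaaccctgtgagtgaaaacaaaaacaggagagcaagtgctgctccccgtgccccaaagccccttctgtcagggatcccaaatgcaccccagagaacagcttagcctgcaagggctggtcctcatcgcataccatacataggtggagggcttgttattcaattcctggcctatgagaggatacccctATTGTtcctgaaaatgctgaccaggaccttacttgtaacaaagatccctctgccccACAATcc
Apln, chrX:48034854-48035103, minus strand: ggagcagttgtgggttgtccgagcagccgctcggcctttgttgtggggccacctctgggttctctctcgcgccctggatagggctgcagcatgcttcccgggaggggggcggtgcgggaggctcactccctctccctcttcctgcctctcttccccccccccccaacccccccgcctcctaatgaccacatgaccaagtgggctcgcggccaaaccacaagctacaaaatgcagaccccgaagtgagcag
Adm, chr7:110627407-110627656, plus strand: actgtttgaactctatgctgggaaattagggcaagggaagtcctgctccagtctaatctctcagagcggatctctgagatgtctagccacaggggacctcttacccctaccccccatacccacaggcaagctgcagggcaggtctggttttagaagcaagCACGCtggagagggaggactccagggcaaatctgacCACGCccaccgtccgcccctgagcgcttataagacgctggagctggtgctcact
The Tek window held ACAAT 2 times, beginning 7 bases before the start on the gene's strand and 63 bases before it on the other. The Adm window held GCGTG 2 times, both on the opposite strand, 90 and 54 bases before the start. GCGTG was also present in the windows of Esm1 (47 bases before the start) and Cxcr4 (39 bases). None of the 4 motifs lay in the windows of Apln or Tie1. Matches of this length are common: of 32851 promoter windows of equal length, 27.7% held ACAAT, 28.2% GCGTG, 16.6% ACGTG and 3.17% GTAAACA.

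The question put to each stage was whether these genes differed between KO and wt. At P9, 4 of the 9 were higher in KO and 2 lower. Angpt2 rose 6.73-fold, Adm 2.97-fold, Cxcr4 1.83-fold and Apln 1.53-fold, while Aplnr fell to 0.509 and Tek to 0.794 of the wt level. Of all 17159 genes tested, 28% were called at P9, 13.5% higher and 14.6% lower. The median log2 fold change of the 9 genes was -0.01, against 0.02 over all genes tested. Scaled to the summed endothelial markers, which moved the median gene by -0.42, 2 of the 9 were called higher and 3 lower. At E15.5, 2 of the 9 were called, both higher: Angpt2 rose 2.42-fold and Adm 1.99-fold. That compares with 0.548% of all genes called in either direction and 0.42% called higher. At P5 no gene of the 9 was called by edgeR's quasi-likelihood test, where 0.53% of all genes were, nor by DESeq2 or limma, and 4 had an unadjusted p under 0.05. In adults none was called by the 3 tools, where 0.0874% of all genes were, and 1 had an unadjusted p under 0.05.

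**Figure D1:**
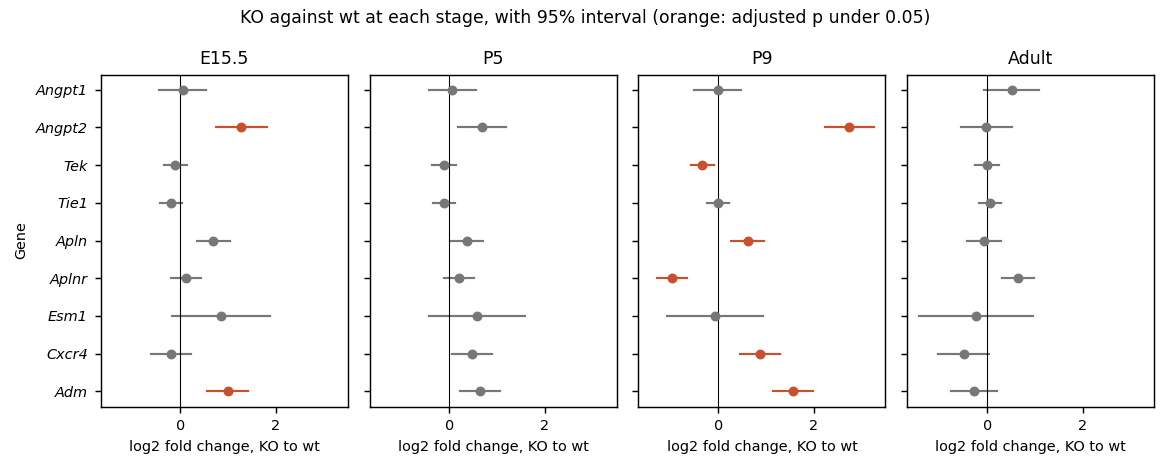
Log2 fold change of KO against wt (x axis) for the 9 genes (y axis) at E15.5, P5, P9 and in adults, with its 95% interval, n = 3 libraries a group. Orange marks an adjusted p under 0.05: Angpt2 and Adm at E15.5, and 6 genes at P9, of which Angpt2 moved furthest up (2.75) and Aplnr furthest down (-0.97).

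Angpt2, Adm and Apln lay above every wt library in every KO library at each of E15.5, P5 and P9, also where the test did not call them. Of all genes tested, 68 of 17159 did so, or 0.396%. At E15.5 alone 4 of the 9 genes had all KO libraries above all wt libraries, Esm1 being the other, against 4.99% of all genes. At P5 these were 3 of the 9, against 7.8%. At P9 they were 4 above and 2 below, against 19% and 21.7%. In adults Angpt1 and Aplnr lay above (5.09% of all genes) and Cxcr4 below (5.79%).

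**Figure D2:**
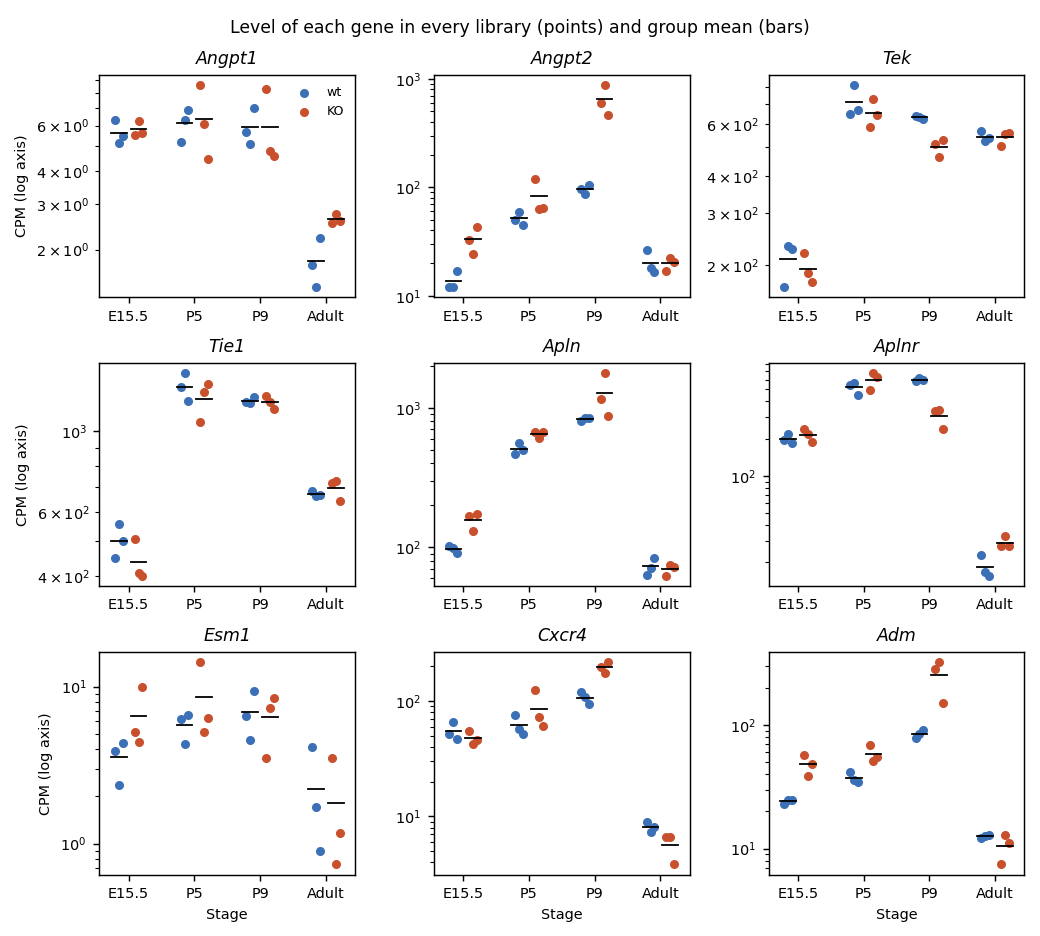
Level in CPM (y axis, log scale) of each of the 9 genes in every library (points, wt blue and KO red) at 4 stages (x axis), with group means as bars. The P9 KO points of Angpt2 (467 to 884 CPM) and Adm (151 to 321 CPM) stand above all other points of those genes, and the P9 KO points of Aplnr (238 to 344 CPM) stand below its P9 wt points (587 to 615 CPM).

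Angpt2 (ENSMUSG00000031465, protein-coding, mm10 chromosome 8, 18690263 to 18741562, minus strand), the endothelial Tie2 ligand, showed the largest KO difference of the 9 genes. At E15.5 the wt libraries held 12.2, 12.1 and 16.7 CPM and the KO libraries 32.9, 24.4 and 42.8 CPM. At P5 they held 50.3, 59.0 and 45.4 CPM in wt and 119.8, 63.4 and 65.0 CPM in KO. The KO libraries were above the wt libraries at both stages, with a narrow gap at P5, where KO library 1 stood far above the other two. At P9 the wt libraries held 97.3, 87.6 and 105 CPM and the KO libraries 598, 884 and 467 CPM. In adults wt held 26.3, 17.9 and 16.5 CPM and KO 17.1, 22.2 and 20.6 CPM. The P9 groups were far apart and the adult groups overlapped. The log2 fold change was 1.28 ± 0.26 at E15.5 (adjusted p = 0.015), 0.68 ± 0.24 at P5 (adjusted p = 0.39), 2.75 ± 0.25 at P9 (adjusted p = 1.6e-08) and -0.02 ± 0.26 in adults (adjusted p = 1). The 95% interval of the adult difference was -0.56 to 0.52.

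The P5 difference passed with no filter on low counts (adjusted p = 1.4e-05) and in no other alternative. The P9 call of Angpt2 was kept in each alternative tried, with an adjusted p of 0.00010 at most. The E15.5 call was lost without wt library 1 (adjusted p = 0.13) or 2 (0.092) and without KO library 1 (0.057) or 3 (0.11). It was also lost when both libraries numbered 3 were left out (adjusted p = 0.13) and in a fit of the 6 E15.5 libraries alone (0.13), while the log2 fold change stayed between 1.06 and 1.46. Red cell and platelet markers were lower in the same E15.5 KO libraries, with 5 of 6 and 4 of 6 markers called lower and platelet sums of 39.4 to 57.8 CPM in wt and 19.5 to 24.6 CPM in KO. Their part in the E15.5 result was not tested.

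Angpt1 (ENSMUSG00000022309, protein-coding, chromosome 15, 42424727 to 42676977, minus strand), the activating Tie2 ligand of mural cells, was scarce in these preparations. At P9 the wt libraries held 5.69, 5.09 and 6.99 CPM and the KO libraries 8.32, 4.80 and 4.60 CPM. KO library 1 was highest and the groups overlapped. The P9 log2 fold change was -0.02 ± 0.24 (95% interval -0.51 to 0.48, adjusted p = 0.98). At E15.5 and P5 it was 0.04 and 0.06 with overlapping libraries. In adults wt held 1.75, 1.44 and 2.22 CPM and KO 2.54, 2.75 and 2.59 CPM. The adult KO libraries all lay above the wt libraries, but the difference of 0.51 ± 0.28 was not called (adjusted p = 1).

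Tek (ENSMUSG00000006386, protein-coding, chromosome 4, 94739289 to 94874976, plus strand) encodes Tie2, the receptor of both angiopoietins. At P9 its level was 640.1, 633 and 624 CPM in wt and 514, 465 and 528 CPM in KO. The wt libraries were nearly equal and all KO libraries lay below them. The fall was small, -0.33 ± 0.12 on the log2 scale (adjusted p = 0.042). The call was lost with DESeq2's size factors (adjusted p = 0.096), with DESeq2's own test (0.08) and with a replicate block (0.053). It was also lost without P9 wt library 1 (0.1), 2 (0.09) or 3 (0.078) and without P9 KO library 1 (0.064) or 2 (0.11). With endothelial scaling, which moved the median gene by -0.42, the P9 log2 fold change was -0.79 (adjusted p = 7.8e-06). Relative to that median gene it was -0.37. At E15.5 Tek stood at 169, 231 and 227 CPM in wt and 220.1, 188 and 175 CPM in KO. The groups overlapped there, at P5 and in adults, where the log2 fold changes were -0.11 (95% interval -0.36 to 0.14), -0.12 (-0.37 to 0.13) and -0.01 (-0.26 to 0.24).

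Tie1 (ENSMUSG00000033191, protein-coding, chromosome 4, 118471191 to 118490061, minus strand), the orphan receptor that pairs with Tie2, was measured at 1201, 1191 and 1238 CPM in P9 wt and 1249, 1204 and 1152 CPM in P9 KO. The P9 groups overlapped and the log2 fold change was -0.01 ± 0.11 (95% interval -0.24 to 0.22, adjusted p = 0.96). Its KO libraries overlapped wt at the other stages as well, with log2 fold changes of -0.19 at E15.5, -0.11 at P5 and 0.06 in adults, none called. Scaled to the summed endothelial markers, which were higher in P9 KO, Tie1 was called lower at P9 (-0.47, adjusted p = 0.00033). That scaling moved the median of all genes by -0.42, so relative to the median gene Tie1 differed by -0.06.

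Apln (ENSMUSG00000037010, protein-coding, chromosome X, 48025146 to 48034853, minus strand) encodes apelin. At E15.5 its level was 102, 98.6 and 90.8 CPM in wt and 168, 130.1 and 172 CPM in KO. At P5 it was 466, 556 and 500.0 CPM in wt and 675, 607 and 671 CPM in KO. All KO libraries lay above all wt libraries at both stages, and neither difference was called in the fit of all libraries: 0.69 ± 0.17 at E15.5 (adjusted p = 0.069) and 0.36 ± 0.17 at P5 (0.61). The E15.5 difference passed with DESeq2 (0.013), with no filter on low counts (8.6e-06), with endothelial scaling (0.043) and without KO library 2 (0.049). At P9 the level was 798, 844 and 844 CPM in wt and 1163, 1761 and 878 CPM in KO. KO library 2 stood far above the others and KO library 3 only just above wt. The P9 log2 fold change was 0.61 ± 0.17 (adjusted p = 0.0073), and without KO library 2 it was 0.29 and not called (adjusted p = 0.11). In the 6 P9 libraries alone it was not called either (adjusted p = 0.087), nor with endothelial scaling (0.11, adjusted p = 0.58). In adults wt held 63.6, 71.4 and 83.5 CPM and KO 62.6, 74.5 and 71.6 CPM, overlapping, with a log2 fold change of -0.07 (95% interval -0.42 to 0.28).

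Aplnr (ENSMUSG00000044338, protein-coding, chromosome 2, 85136225 to 85139923, plus strand), the apelin receptor, moved the other way at P9. Its level was 587, 615 and 601 CPM in P9 wt and 336, 344 and 238 CPM in P9 KO. No KO library came near the wt libraries. The log2 fold change was -0.97 ± 0.15 (adjusted p = 2.9e-05), a call kept in each alternative tried. At P5 wt held 542, 566 and 454 CPM and KO 493, 673 and 626 CPM. At E15.5 wt held 195, 217 and 183 CPM and KO 239.8, 219 and 186 CPM. These groups overlapped, with differences of 0.20 (95% interval -0.11 to 0.51) at P5 and 0.12 (-0.19 to 0.43) at E15.5. In adults the level was low, at 23.1, 16.6 and 15.6 CPM in wt and 27.3, 32.3 and 26.9 CPM in KO. All adult KO libraries lay above wt, and the difference of 0.65 ± 0.16 was not called over all genes (adjusted p = 0.29) except without the low-count filter (0.0012).

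Adm (ENSMUSG00000030790, protein-coding, chromosome 7, 110627661 to 110629820, plus strand) encodes adrenomedullin, a vasoactive peptide known as a hypoxia target. At E15.5 it held 22.8, 24.6 and 24.7 CPM in wt and 57.5, 38.4 and 48.2 CPM in KO. At P5 it held 41.9, 35.8 and 34.2 CPM in wt and 68.7, 50.8 and 55.1 CPM in KO. Each KO library was above each wt library at both stages. At P9 it held 78.7, 83.8 and 91.3 CPM in wt and 281, 321 and 151 CPM in KO. In adults it held 12.1, 12.7 and 13.0 CPM in wt and 7.44, 12.9 and 11 CPM in KO. The P9 groups were apart, KO library 3 being lowest, and the adult groups overlapped. The log2 fold change was 0.99 ± 0.21 at E15.5 (adjusted p = 0.019), 0.64 ± 0.20 at P5 (0.27), 1.57 ± 0.20 at P9 (2.7e-06) and -0.27 in adults (95% interval -0.75 to 0.20). The P9 call held in each alternative tried. The P5 difference passed with no low-count filter (0.00040) and in the 6 P5 libraries alone (0.016). The E15.5 call was lost without wt library 1 (adjusted p = 0.13), 2 (0.064) or 3 (0.08), without KO library 1 (0.14) or 3 (0.057), without both libraries numbered 3 (0.17) and in the 6 E15.5 libraries alone (0.082).

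Cxcr4 (ENSMUSG00000045382, protein-coding, chromosome 1, 128588199 to 128592293, minus strand), the receptor of the chemokine Cxcl12, was called at P9 and, in the fit of all libraries, at no other stage. The P9 level was 118, 108 and 93.5 CPM in wt and 196, 173 and 216 CPM in KO. The groups did not overlap, and the log2 fold change was 0.87 ± 0.20 (adjusted p = 0.0023). With endothelial scaling it was 0.42 and not called (adjusted p = 0.12), or 0.84 relative to the shifted median gene. At P5 wt held 75.8, 57.1 and 51.8 CPM and KO 124, 72.2 and 61.2 CPM, overlapping, with a difference of 0.48 (95% interval 0.05 to 0.90, adjusted p = 0.56) that passed only with no filter on low counts (0.029). At E15.5 the difference was -0.20 (-0.63 to 0.23) and in adults -0.49 (-1.03 to 0.05).

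Esm1 (ENSMUSG00000042379, protein-coding, chromosome 13, 113209659 to 113218098, plus strand), whose product endocan is a classical tip cell marker, was scarce and gave wide intervals. At P9 wt held 6.54, 4.58 and 9.42 CPM and KO 3.53, 7.28 and 8.46 CPM. These libraries overlapped, with a log2 fold change of -0.07 ± 0.48 (95% interval -1.07 to 0.93, adjusted p = 0.94). At E15.5 wt held 3.88, 2.36 and 4.36 CPM and KO 5.15, 4.46 and 9.86 CPM. KO lay just above wt there, with a difference of 0.85 ± 0.50 that was not called (adjusted p = 1). At P5 the difference was 0.58 (95% interval -0.42 to 1.58) and in adults -0.24 (-1.44 to 0.97). At these depths a change of up to about 1 log2 unit in either direction lay within the P9 interval.

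The P9 KO libraries did not share 1 level of response. KO library 2 was highest for Angpt2, Apln and Adm, and KO library 3 was lowest for all 3 of them. Library 3 was the highest of the KO libraries for Cxcr4 and the lowest for Aplnr. Residual Sox17 was 18.9, 23.9 and 27.2 CPM in these libraries, and with 3 libraries no relation between the levels can be tested.

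Whether the KO effect itself differed between stages was tested with an F test over the 4 stages. It differed for 4 of the 9 genes, against 13.5% of all genes: Angpt2 (adjusted p = 3.3e-05), Aplnr (7.0e-05), Adm (0.0010) and Cxcr4 (0.010). The Cxcr4 result was lost with endothelial scaling (0.076). For Apln the adjusted p was 0.1, and it passed with DESeq2 (0.032), with no low-count filter (0.00074) and without P9 KO library 2 (0.026) or 3 (0.0089). Angpt1, Tek, Tie1 and Esm1 had adjusted p values of 0.58 to 0.71, of which Tek (0.0024) and Tie1 (0.028) passed with endothelial scaling. Between P5 and P9, pups of the same tamoxifen schedule, the effect changed for 3 of the 9 genes, against 15.7% of all genes, 7.26% with a higher and 8.44% with a lower effect at P9. The effect of KO on Angpt2 was 2.07 ± 0.34 greater at P9 than at P5 (adjusted p = 0.00018), and that on Adm was 0.93 ± 0.28 greater (0.028). The effect on Aplnr was 1.17 ± 0.21 lower at P9, as the difference of -1.17 states (adjusted p = 0.00047). The Adm difference was lost without P5 wt library 1 (adjusted p = 0.079), P5 KO library 2 (0.079) or 3 (0.058), P9 wt library 1 (0.07) or 2 (0.056), and P9 KO library 1 (0.068) or 2 (0.078). It was also lost with limma-trend (0.055) and with endothelial scaling (0.2). Cxcr4 had a P9 minus P5 difference of 0.40 (95% interval -0.20 to 0.99), not called except without P5 KO library 1 (0.76, adjusted p = 0.046). Age, the time since tamoxifen and the dissociation kit all changed between P5 and P9. Their parts were not tested and cannot be told apart. Over the 4 stages the tamoxifen schedule differed as well.

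Per gene length, the order of the 9 genes differed between P9 wt and P9 KO. In P9 wt, Apln (848 ± 41.4 TPM, SD) and Tie1 (793 ± 32.8) led with overlapping libraries. Aplnr (523 ± 17.9) and Tek (432 ± 4.03) followed, each apart from its neighbours. Cxcr4 (189.6 ± 18.4) and Adm (169 ± 16.2) overlapped each other, and Angpt2 (84.3 ± 8.83), Esm1 (10.6 ± 3.96) and Angpt1 (4.49 ± 0.83) came last in that order. In P9 KO, Apln (1221 ± 352 TPM) and Tie1 (752 ± 41.2) still led, and Angpt2 (535 ± 139) came next. Its libraries overlapped those of the next gene, Adm (470.2 ± 139). Cxcr4 (335 ± 61.6), Tek (329.8 ± 44.4) and Aplnr (253 ± 33.7) had lower means, but Adm overlapped Cxcr4 and Tek, these overlapped each other, and Aplnr overlapped Cxcr4. Esm1 (9.52 ± 4.17) and Angpt1 (4.27 ± 1.47) were again the lowest.

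Ratios of TPM within a library set a ligand beside its receptor free of the scaling between libraries. These 5 ratios, computed at 4 stages, were chosen after the values had been seen, and with 3 libraries against 3 the exact permutation test cannot go below p = 0.1. Angpt2 to Tek was 0.194, 0.177 and 0.214 in P9 wt and 1.48, 2.43 and 1.13 in P9 KO. P9 KO was the one group of the 8 in which Angpt2 transcripts outnumbered Tek transcripts. KO minus wt on the log2 scale was 3.04 at P9, 1.37 at E15.5 and 0.74 at P5, each with libraries apart (exact p = 0.1, two-sided), and 0.01 in adults (exact p = 1). Angpt2 to Angpt1, the competing ligand over the activating one, was 19.7, 19.8 and 17.2 in P9 wt and 82.8, 213 and 117 in P9 KO. At E15.5 and P5 that ratio too was above the wt range in each KO library. Mural cells are the main known source of Angpt1, and 5 of 8 pericyte markers were called lower in P9 KO. Their part in the Angpt1 values was not tested.

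Apln to Aplnr was 1.60, 1.61 and 1.65 in P9 wt and 4.06, 6.02 and 4.33 in P9 KO, apart by 1.55 on the log2 scale (exact p = 0.1). Ligand rose and receptor fell there in the same libraries. In adults the same ratio lay below wt in each KO library, at 2.69, 2.70 and 3.13 against 3.24, 5.07 and 6.29, a difference of -0.73 (exact p = 0.1). Cxcr4 to Cxcl12 was 0.691, 0.607 and 0.527 in P9 wt and 3.87, 4.58 and 2.27 in P9 KO. The receptor exceeded its ligand in P9 KO and not in P9 wt, a difference of 2.5 (exact p = 0.1). At P5 KO lay above wt too (0.88, exact p = 0.1), while at E15.5 the ratio was above 1 in both groups and KO lay below wt (-0.49, exact p = 0.1). The adult groups overlapped. Tek to Tie1 was 0.526 to 0.556 in P9 wt and 0.403 to 0.479 in P9 KO, the smallest shift of the 5 at that stage (-0.32, exact p = 0.1).

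**Figure D3:**
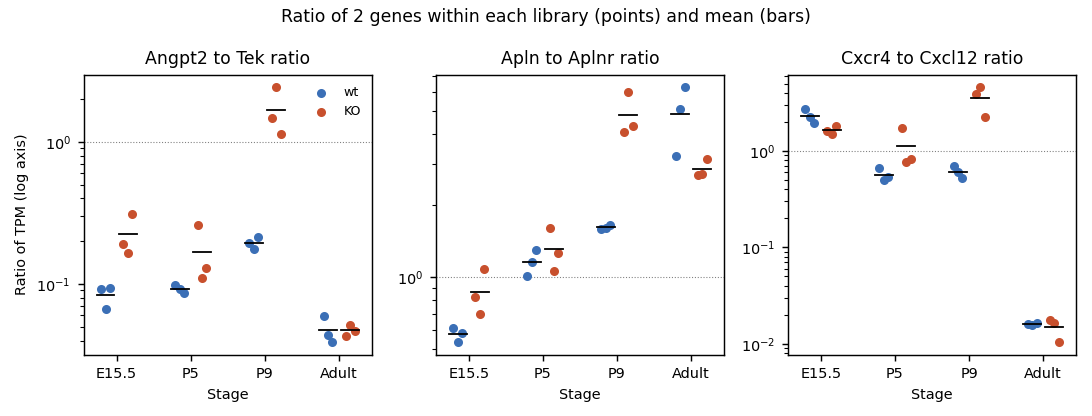
Ratio of TPM (y axis, log scale) of Angpt2 to Tek, Apln to Aplnr and Cxcr4 to Cxcl12 in every library (points, wt blue and KO red) at 4 stages (x axis), with the group mean as a bar and a dotted line at equal levels. The P9 KO libraries lie at 1.13 to 2.43 for Angpt2 to Tek, above the line that all other groups stay below, and at 4.06 to 6.02 for Apln to Aplnr, above P9 wt (1.60 to 1.65).

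The other genes of the angiopoietin-Tie pathway, a list of 10, divided at P9: 2 were called higher and 2 lower, with a median log2 fold change of -0.06. Of all genes tested, 13.5% were called higher and 14.6% lower at that stage. With endothelial scaling 1 was called higher and 5 lower. Ptprb, the phosphatase that removes phosphate from Tie2, rose from 1169, 1274 and 1219 CPM to 2046, 1960.1 and 2314 CPM. The groups lay far apart (0.79 ± 0.10, adjusted p = 3.2e-06). Tnip2, a partner of Tie2 signalling that restrains NF-kappaB, rose by 0.65 ± 0.13 (0.00036), though not with endothelial scaling (0.18, adjusted p = 0.29). Mmp14, a membrane metalloprotease, fell by 0.49 ± 0.14 (adjusted p = 0.0083). Adam17, a sheddase, fell by 0.25 ± 0.09 (adjusted p = 0.032), a call lost without P9 wt library 1 (0.059), 2 (0.058) or 3 (0.11), without KO library 1 (0.06) or 2 (0.086), with DESeq2's size factors (0.11) or test (0.092) and with no low-count filter (0.18). The ligand Angpt4 reached at most 1.94 CPM in any library, and Svep1, the Tie1-binding matrix protein, had a P9 difference of -0.38 (95% interval -1.03 to 0.26). The transcription factor Foxo1, known as a driver of Angpt2, was chosen after its values were seen and had a P9 difference of 0.11 (95% interval -0.10 to 0.31).

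Of 5 apelin pathway genes, 4 were tested and 3 called higher at P9, or 2 with limma. The share of all genes called higher there was 13.5%. Named here are 2 peptidases that process or degrade apelin: Furin, which cuts proapelin (0.54 ± 0.09, adjusted p = 4.0e-05), and Mme or neprilysin (1.27 ± 0.34, 0.0032). Furin was at 145, 146 and 143 CPM in wt and 196, 201 and 235 CPM in KO, and was not called with endothelial scaling (0.09, adjusted p = 0.57). Mme was scarce, at 0.566 to 1.43 CPM in wt and 2.30 to 2.55 CPM in KO. The second apelin receptor ligand, Apela, did not pass the filter and was under 1 CPM in all libraries.

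Of 9 genes around Cxcr4 and adrenomedullin, 8 were tested and 6 called at P9, 3 in each direction. Of all genes tested, 28% were called there, 13.5% higher and 14.6% lower. With endothelial scaling 1 of the 8 was called higher and 3 lower. Cxcl12, the Cxcr4 ligand, fell from 775, 803 and 802 CPM to 229, 171 and 431 CPM. No KO library reached the wt range (-1.52 ± 0.22, adjusted p = 1.2e-05). Ackr3, the scavenging receptor of Cxcl12, rose from 49.1, 48.1 and 43.2 CPM to 89.5, 78.9 and 119 CPM (1.03 ± 0.21, adjusted p = 0.00071), though not with endothelial scaling (0.59, adjusted p = 0.053). Dpp4, a protease that inactivates Cxcl12, fell by 1.27 ± 0.15 (adjusted p = 5.6e-07). Among the adrenomedullin receptor parts, Ramp3 rose from 1.63, 1.64 and 1.43 CPM to 10.1, 18.5 and 7.48 CPM. The groups were far apart at this low level (2.84 ± 0.33, adjusted p = 3.3e-07). The receptor Calcrl rose by 0.43 ± 0.15 (adjusted p = 0.033), a call lost without P9 wt library 1 (0.081) or 3 (0.12), without KO library 1 (0.08) or 3 (0.073) and with endothelial scaling (-0.03, adjusted p = 0.89). Ramp2, the more abundant Calcrl partner in endothelium, had a difference of 0.22 (95% interval -0.05 to 0.49). In P9 KO 5 of 8 pericyte markers were called lower. Of 6 fibroblast markers 5 were called lower and 1 higher, with sums of 333 to 439.8 CPM in wt and 197 to 284 CPM in KO. From E15.5 to P5 in wt, 7 pericyte and 2 fibroblast markers were called higher, as was Cxcl12. From P9 to adulthood in wt, 8 pericyte and 5 fibroblast markers were called lower, while Cxcl12 rose. The part of these markers in the Cxcl12 values was not tested.

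**Figure D4:**
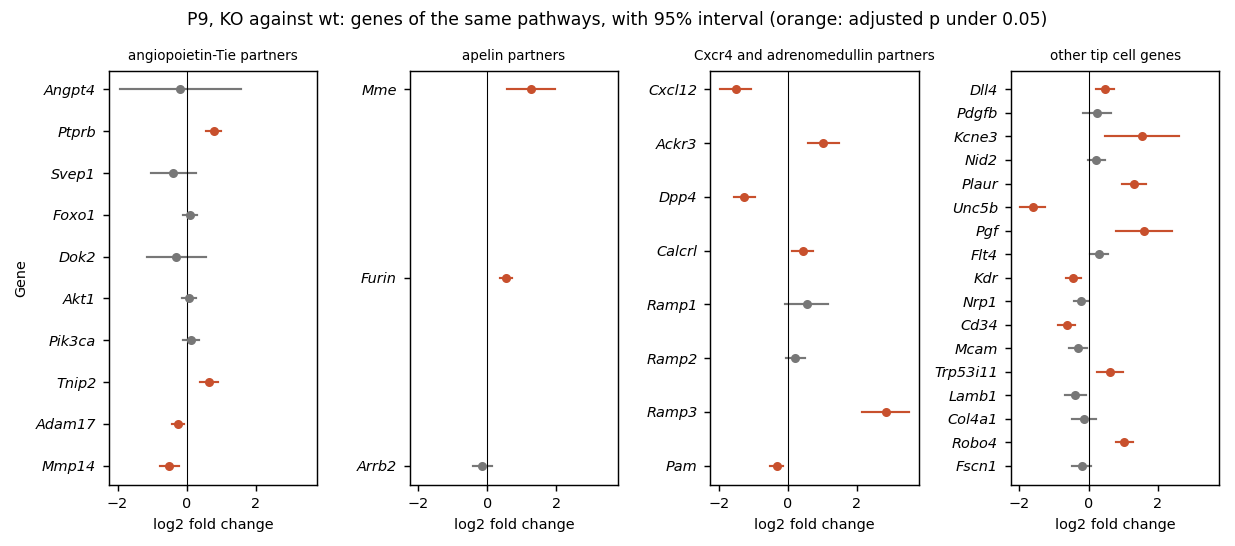
Log2 fold change of KO against wt at P9 (x axis) for genes of 4 pathway lists (y axis), with its 95% interval, n = 3 libraries a group. Orange marks an adjusted p under 0.05, with Ramp3 furthest up at 2.84 and Cxcl12 (-1.52) and Unc5b (-1.62) furthest down, and all lists but that of apelin hold calls on both sides of 0.

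Of 17 other tip cell genes, 6 were called higher and 3 lower at P9, where 28% of all genes were called, with a median of 0.22. Robo4, an endothelial guidance receptor, rose from 568, 583 and 614 CPM to 1160.4, 1352 and 1111 CPM (1.04 ± 0.12, adjusted p = 3.2e-07). Plaur, the urokinase receptor, rose from 55.0, 52.8 and 53.7 CPM to 139, 167 and 98.7 CPM (1.32 ± 0.17, 1.9e-06). Unc5b, a netrin receptor of tip cells, went the other way, from 401, 369 and 419.6 CPM to 112, 88.6 and 187 CPM (-1.62 ± 0.17, 2.0e-07). Cd34, a sialomucin of tip cell filopodia, fell by 0.63 ± 0.12 (adjusted p = 0.00020). Calls thus went in both directions within this list. With endothelial scaling, which lowered the median gene by 0.42 as given above, the balance turned to 3 higher and 9 lower, with a list median of -0.26.

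Since Adm and Angpt2 are known to respond to low oxygen, a list of 12 hypoxia genes was counted beside them. At P9, 7 of the 12 were called, all higher, where 28% of all genes were called and 13.5% called higher, with a median of 0.55. Under endothelial scaling 3 of the 12 were called higher and 3 lower, with a median of 0.10. Ndrg1 (1.84 ± 0.25), Bnip3 (1.40 ± 0.20), Kdm3a (0.69 ± 0.12) and Pdk1 (0.60 ± 0.13) had the smallest adjusted p values, 4.9e-06 to 0.0010. With endothelial scaling Kdm3a (0.22, adjusted p = 0.23) and Pdk1 (0.12, adjusted p = 0.5) were not called. At E15.5 and P5 Adm lay above wt in each KO library. So did 6 of the 12 hypoxia genes at E15.5 and 5 at P5, against 4.99% and 7.8% of all genes. The list medians were 0.27 and 0.19. None of the 12 was called by edgeR at either stage, and 4 and 1 had an unadjusted p under 0.05. DESeq2 called 1 and 0, and limma called none at either stage. In wt 3 of the 12 were called higher and 3 lower from E15.5 to P5, where 66.6% of all genes were called. From P5 to P9 1 was called, higher, against 5.12%. From P9 to adulthood 4 were called higher and 4 lower, against 61.1%, with a median of -0.18, while Adm and Angpt2 fell. From E15.5 to adults 6 were called higher and 1 lower, against 69.6%. The part of low oxygen in the Adm and Angpt2 values was not tested. Astrocyte markers were also higher in P9 KO, 5 of 6 called, and their part in these values was not tested.

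Outside P9 the pathway lists held almost no calls. Of all genes tested, edgeR called 0.548% at E15.5, 0.53% at P5 and 0.0874% in adults. At E15.5 and P5 edgeR, DESeq2 and limma called no gene of the angiopoietin, Cxcr4-adrenomedullin and tip cell lists. An unadjusted p under 0.05 was found for 0, 2 and 3 of their genes at E15.5, in that order, and for 2, 3 and 2 at P5. In adults 1 was called by all 3 tools, the Notch ligand Dll4 of tip cells, which fell by 0.75 ± 0.13 (adjusted p = 0.011). That call was lost without adult wt library 1 (0.088), 2 (0.055) or 3 (0.0503) and without adult KO library 1 (0.12).

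The wt libraries were compared between stages for the course of the 9 genes without Sox17 loss. Each of these comparisons also changes the tamoxifen schedule, the dissociation kit or both, which cannot be told apart from stage. From E15.5 to P5, 6 of the 9 were called higher and none lower, where 66.6% of all genes were called, 36.2% higher and 30.4% lower. Apln rose 5.22-fold (2.39 ± 0.17), Angpt2 3.74-fold, Tek 3.39-fold, Tie1 2.65-fold, Aplnr 2.62-fold and Adm 1.55-fold. Angpt1, Esm1 and Cxcr4 had differences of 0.12, 0.67 and 0.16 that were not called. In the same step 6 of 6 neuron markers were called lower, and their part in these values was not tested. All 10 endothelial markers were higher at P5 too, and scaled to their sum the picture was different. On that scale the median of all genes moved by -1.70, and of the 9 genes Apln was called higher (0.53), Angpt2 was not called (0.06), Tek was not called (-0.08), and Tie1 (-0.44), Aplnr (-0.46), Angpt1 (-1.71), Esm1 (-1.14), Cxcr4 (-1.68) and Adm (-1.21) were called lower. Of the called rises in this step, that of Apln alone was thus called on both scales.

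From P5 to P9, 4 of the 9 were called higher in wt, where 5.12% of all genes were called, 2.67% higher and 2.45% lower. These were Adm (1.18 ± 0.20, adjusted p = 0.0013), Angpt2 (0.90 ± 0.24, 0.031), Cxcr4 (0.79 ± 0.21, 0.026) and Apln (0.71 ± 0.17, 0.015). They are the 4 genes that were higher still in P9 KO, and the 2 comparisons share the P9 wt libraries. The Angpt2 call was lost without P5 wt library 1 (adjusted p = 0.095) or 3 (0.14), without P9 wt library 1 (0.086), 2 (0.069) or 3 (0.1) and with endothelial scaling (0.07). The Cxcr4 call was lost without P5 wt library 2 (0.086) or 3 (0.13), without P9 wt library 1 (0.11) or 2 (0.086) and with endothelial scaling (0.1). The Apln call was lost without P5 wt library 1 (0.066) or 3 (0.061) and without P9 wt library 2 (0.06). Tek, Tie1, Aplnr, Angpt1 and Esm1 had differences of -0.17, -0.13, 0.21, -0.05 and 0.26, none called.

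From P9 to adulthood 8 of the 9 were called lower in wt, where 61.1% of all genes were called, 30.8% higher and 30.3% lower. Aplnr fell 32.5-fold, from 601 ± 13.8 to 18.4 ± 4.07 CPM (SD; log2 -5.02 ± 0.18). Cxcr4 fell 12.9-fold, Apln 11.4-fold, Adm 6.66-fold, Angpt2 4.75-fold, Angpt1 3.13-fold, Esm1 2.97-fold and Tie1 1.80-fold. Tek had a difference of -0.22 (95% interval -0.47 to 0.03, adjusted p = 0.12), called only in the fit of the 6 libraries compared (adjusted p = 0.0044). The fall of Esm1 (-1.57, adjusted p = 0.011) was not called without P9 wt library 3 (0.057) or adult wt library 3 (0.065). Over this step 8 of 8 pericyte markers were called lower, from 2623 to 3630.4 CPM to 458 to 567 CPM. From E15.5 to adults in wt 7 of 8 were called lower, and Angpt1 differed by -1.58. From E15.5 to P5 in wt 7 of 8 were called higher, while Angpt1 differed by 0.12, not called. In P9 KO 5 of 8 were called lower, while Angpt1 differed by -0.02, not called. The part of the pericyte markers in the Angpt1 fall was not tested. Of 6 oligodendrocyte lineage markers 5 were called higher from P9 to adulthood and 1 lower, their sum going from 794 to 1244 CPM to 13398 to 16562 CPM. The 8 falls were also called with endothelial scaling, where the median gene moved by 0.14, and Aplnr then fell by 4.90 on the log2 scale.

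Adult against E15.5 wt, 7 of the 9 were called, 2 higher and 5 lower, where 69.6% of all genes were called, 35.2% higher and 34.3% lower. Tek (1.38 ± 0.12) and Tie1 (0.42 ± 0.11) were called higher in adults in CPM. Aplnr (-3.42), Cxcr4 (-2.74), Angpt1 (-1.58), Adm (-0.93) and Apln (-0.41) were lower. With endothelial scaling Tek and Tie1 were called lower (-0.44 and -1.40) and so was Angpt2 (-1.27). In CPM Angpt2 had a difference of 0.56 (adjusted p = 0.066), called higher with no low-count filter (0.0011), in the 6 libraries alone (0.039), without E15.5 wt library 3 (0.037) or adult wt library 3 (0.044) and without both E15.5 libraries numbered 3 (0.031). The Apln call (adjusted p = 0.034) was lost without E15.5 wt library 1 (0.087) or 2 (0.067) and without adult wt library 1 (0.14) or 2 (0.078).

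**Figure D5:**
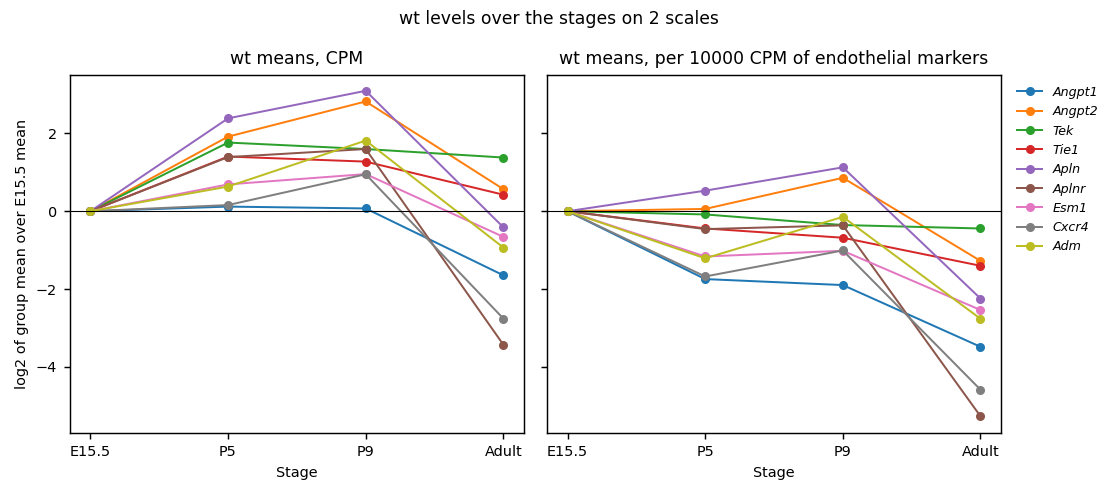
Log2 of the wt group mean of each of the 9 genes over its E15.5 mean (y axis) at 4 stages (x axis), in CPM (left) and per 10000 CPM of summed endothelial markers (right), n = 3 libraries a group. In CPM 6 genes are called higher at P5 and 8 are called lower in adults than at P9, while on the endothelial scale Apln alone is called higher at P5.

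The wt course of the partners was mixed. From P9 to adulthood Cxcl12 rose 2.91-fold while its receptor Cxcr4 fell, so that the Cxcr4 to Cxcl12 ratio went from 0.527 to 0.691 at P9 to 0.0156 to 0.0163 in adults. Ramp3 rose 5.72-fold and Ramp1 5.02-fold, and Ramp2 fell to 0.539 of its P9 level. Of the 17 other tip cell genes, 13 were called lower in adults than at P9 and 1 higher. Over all genes tested, 30.3% were called lower and 30.8% higher in that step. Lamb1, a laminin chain of growing vessels, fell by 4.57 on the log2 scale, Nid2 by 2.85 and the VEGF receptor Kdr by 1.85. Ptprb differed by -0.18 (95% interval -0.39 to 0.04).

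Genes with the most similar course were sought over the 8 group means of log2 CPM, each centred on its own mean, among 11605 genes of at least 5 CPM. The measure was the root-mean-square difference over the 8 means. Closest to Angpt2 were Osgin1 (0.475), Ctgf (0.513) and Fgfbp1 (0.547). These distances were larger than for Tek, with Stard8 (0.0701), Irak4 (0.0966) and Aldh9a1 (0.122), or Tie1, with Pard3b (0.0741), Dap (0.0791) and Slc39a1 (0.0806). Closest to Apln were Megf6 (0.339), Angptl4 (0.363) and Apold1 (0.419), to Aplnr Chp2 (0.253), Lamb1 (0.276) and Igfbp4 (0.282), and to Adm Pawr (0.366), Maff (0.380) and Tmem252 (0.482). Among the closest to Cxcr4 were Mfap4 (0.390) and Adora2a (0.418). Closest to Angpt1 were Brca2, Usp3 and Pcdhb19 (0.116 to 0.137), and to Esm1 Smc4, Mthfd1l and Eef1b2 (0.197 to 0.224). Among the 9 genes themselves Tek and Tie1 were the closest pair (0.349), followed by Angpt1 with Esm1 (0.380) and Cxcr4 with Adm (0.649). Group means spread over 5.53 log2 units for Angpt2, 5.10 for Cxcr4, 5.04 for Aplnr, 4.54 for Adm and 4.13 for Apln, and over 1.60 to 2.30 for the other 4 genes.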

How the data were processed

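Poly-A RNA of 24 libraries was sequenced on the Ion Proton with a stranded protocol, per the labels' protocols. The authors deposited, for each library, counts per gene with their FPKM and TPM. The deposited count column holds raw whole-number counts on the gene's strand, and FPKM and TPM recomputed from it matched the deposited values. The submitters' processing notes name STAR 2.5.3a, SAMtools 1.5, Trim Galore 0.4.1 and FastQC, and the build mm10; the annotation release is not given in the sources used here.

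A gene was tested where any of the 8 groups averaged 10 counts or more (17159 of 45468 genes, the 9 included) with edgeR 4.0.16 in R 4.3.3: TMM scaling (factors 0.861 to 1.14), a quasi-likelihood fit of the 24 libraries (8 group means, 16 residual degrees of freedom), a prior count of 2, and Benjamini-Hochberg adjustment over all genes tested. The deposited TPM served for comparisons between genes and for ratios within a library. Alternatives used DESeq2 1.42.0, limma 3.58.1, other scalings and filters, and fewer libraries. The code was tested on simulated counts.

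The 9 genes and all lists were chosen with earlier results of these data known. Of each pathway list, up to 4 called genes with the smallest adjusted p were named per comparison, besides ligands and receptors of the pathways; a few items are not reported here. The labels call the replicates independent. A floor of 3 counts corresponds to 0.151 to 0.244 CPM, for counting error only.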

Additional observations from a re-analysis of the deposited data

Results flagged for a closer look

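The KO effect differed between the 4 stages, by the F test of edgeR's quasi-likelihood fit, for 4 of the 9 genes, against 13.5% of all genes: Angpt2 (adjusted p = 3.3e-05), Aplnr (7.0e-05), Adm (0.0010) and Cxcr4 (0.010). Between P5 and P9 it changed by 2.07 on the log2 scale for Angpt2, by -1.17 for Aplnr and by 0.93 for Adm. The Cxcr4 result was lost with endothelial scaling (adjusted p = 0.076), and the Adm difference between P5 and P9 was lost in 9 alternatives.

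Among the pathway lists, the F test called 1 of 10 angiopoietin-Tie genes and 1 of 4 apelin genes tested. It also called 5 of 8 Cxcr4-adrenomedullin genes and 7 of 17 other tip cell genes, against 13.5% of all genes. For P9 minus P5 these were 1, 1, 5 and 6, against 15.7%. Given here are 4 of these genes, which encode a regulator, a ligand or receptor parts around the 9. Ptprb, the Tie2 phosphatase, had an adjusted p of 0.0010 over the stages, with an effect 0.78 greater at P9 than at P5. Cxcl12, the Cxcr4 ligand, had an adjusted p of 0.0016 and a difference of -1.07. Ackr3, its scavenging receptor, had an adjusted p of 0.0069 and a difference of 1.47. Ramp3, an adrenomedullin receptor part, had an adjusted p of 8.5e-05 and a difference of 2.26.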

How the results depend on the processing

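Of 1413 values of the 9 genes under the alternatives, 1320 kept their direction and side of the threshold or were uncalled in both. A call was lost in 56 values and gained in 27, and 10 values reversed. A value was counted as reversed where its sign changed and at least 1 of the 2 fits called it. Of the values uncalled in both fits, 42 changed sign. All 10 reversals came with scaling to the summed endothelial markers, which moved the median gene by -1.70 from E15.5 to P5 and by -1.79 from E15.5 to adults in wt. From E15.5 to P5 they were Angpt1 (-1.71), Tek (-0.083), Tie1 (-0.44), Aplnr (-0.46), Esm1 (-1.14), Cxcr4 (-1.68) and Adm (-1.21), and from E15.5 to adults Angpt2 (-1.27), Tek (-0.44) and Tie1 (-1.40). Tek from E15.5 to P5 was not called with that scaling. Angpt1, Esm1 and Cxcr4 from E15.5 to P5, and Angpt2 from E15.5 to adults, were not called with TMM scaling of all libraries. Of the 9 genes, the 2 called at E15.5 became 0 in the groups alone, 0 without both libraries numbered 3 and 0 to 3 without 1 library. The 0 called at P5 became 3 with no filter and 1 in the groups alone, and the 0 in adults became 1 with no filter. The 4 called from wt P5 to P9 became 2 with endothelial scaling and 1 to 3 without 1 library. Over all genes, the 94 calls at E15.5 became 212 with no filter, 148 with DESeq2, 16 in the groups alone, 53 without both libraries numbered 3 and 55 to 93 without 1 library. The 91 at P5 became 322, 162 and 205 under the first 3 of these and 36 to 82 without 1 library, and the 15 in adults became 69, 36 and 40, and 4 to 14. Endothelial scaling changed the calls from 4809 to 8185 at P9, from 2325 to 4807 between stages, from 2694 to 5035 for P9 minus P5 and from 879 to 550 for wt P9 against P5. The last became 1579 with no filter, 2063 in the groups alone and 305 to 630 without 1 library. The cause of these changes was not tested. Same-numbered KO and wt libraries deviated with correlations of 0.065 to 0.486 (E15.5), -0.016 to 0.091 (P5), -0.081 to 0.020 (P9) and 0.0030 to 0.079 (adults). These were over 0.1 in 2 of 3 pairs at E15.5 and in none at the other stages, and at E15.5 KO library 1 correlated best with wt library 2, so pairing by number was not assumed. With a replicate block 5 of the 9 genes were called at P9, Tek being lost (adjusted p = 0.053), and 2 at E15.5. Depth limited Esm1 and Angpt1, which were at a few CPM.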
